A study of Mus musculus with 4 samples.

Results

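The genes described here are 9 apolipoprotein genes, Apoa1, Apoa2, Apoa4, Apob, Apoc1, Apoc3, Apoe, Apoh and Apom, and Fabp1, the liver fatty acid binding protein gene. They were chosen by name, all 10 were found among the 22011 genes of the files, and 9 passed the filter on low counts, the exception being Apoa4. The libraries were made from RNA of fetal liver cells, from mice labelled as knockouts of hnRNP L (genotype hnRNP L -/-, here KO, n = 2) and of mice labelled wild type (WT, n = 2), to compare their transcripts. hnRNP L binds RNA and regulates splicing. The labels' protocols name CD45.1 mice, LckCre transgenics, the Gt(ROSA)26Sortm4(ACTB-tdTomato,-EGFP)Luo reporter strain and C57BL/6 for the study as a whole. Which of these alleles the 4 animals carried, what drove the deletion, the embryonic day and the litters are not given in the labels.

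Apolipoproteins are the protein part of the particles that carry cholesterol and triglycerides in blood. Apob is the structural protein of the particles the liver secretes, Apoa1 and Apoa2 are the main proteins of high-density lipoprotein, and Apoe and the small Apoc proteins move between particles and steer their lipolysis and uptake. Apom carries a signalling lipid on high-density lipoprotein, Apoh binds phospholipids in plasma, and Fabp1 carries fatty acids inside hepatocytes. Blood cells form in the liver before birth, so hepatocytes, in which most of these genes are active, share it with erythroid and other blood cells.

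The starts of these genes are shown as a description of sequence. Whether motifs in them, or the factors that bind such motifs, relate to the levels in KO was not tested. RefSeq entries matched 8 of the 10 genes, Apoc1 and Apoc3 being the others. The 250 bases before the annotated start are printed in 5′ to 3′ order on the strand of the gene, from build GRCm38.p6, whose coordinates for these genes differ from those of the expression files. They lie at chr6:71199629-71199878 (plus strand) for Fabp1, chr9:46228380-46228629 (plus) for Apoa1, chr1:171224804-171225053 (plus) for Apoa2, chr12:7977427-7977676 (plus) for Apob and chr7:19699189-19699438 (minus) for Apoe. The set holds the gene that passed the test (Fabp1), the 3 genes highest per length (Apoa1, Apoa2 and Apoe) and the gene with most reads (Apob). The start used lay 52 bases from that of the matched transcript for Fabp1, 50 for Apoa1, 29 for Apob and 0 for Apoa2 and Apoe. Capitals mark matches on either strand to motifs that were searched by their letters. The TATA box was searched as TATAAA. Sites of forkhead factors such as FOXA were searched as TGTTTAC, also with G in place of its A. One arm of an HNF1 site was searched as GTTAAT. One arm of a nuclear receptor site was searched as AGGTCA, and the site of HNF4 as CAAAGTCCA.
Fabp1: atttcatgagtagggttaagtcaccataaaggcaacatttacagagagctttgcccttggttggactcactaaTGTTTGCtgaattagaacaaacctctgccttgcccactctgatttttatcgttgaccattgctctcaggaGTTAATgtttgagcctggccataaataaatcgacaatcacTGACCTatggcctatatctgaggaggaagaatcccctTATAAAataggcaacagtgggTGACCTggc
Apoa1: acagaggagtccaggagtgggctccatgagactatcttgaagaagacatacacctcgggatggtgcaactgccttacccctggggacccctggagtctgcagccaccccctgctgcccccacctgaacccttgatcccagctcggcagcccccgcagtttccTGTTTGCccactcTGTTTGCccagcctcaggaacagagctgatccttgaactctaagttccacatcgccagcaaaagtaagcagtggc
Apoa2: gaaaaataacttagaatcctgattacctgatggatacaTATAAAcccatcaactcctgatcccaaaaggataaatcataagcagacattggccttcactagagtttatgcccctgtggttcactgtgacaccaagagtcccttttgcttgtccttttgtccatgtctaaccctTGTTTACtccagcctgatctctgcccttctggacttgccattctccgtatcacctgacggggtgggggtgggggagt
Apob: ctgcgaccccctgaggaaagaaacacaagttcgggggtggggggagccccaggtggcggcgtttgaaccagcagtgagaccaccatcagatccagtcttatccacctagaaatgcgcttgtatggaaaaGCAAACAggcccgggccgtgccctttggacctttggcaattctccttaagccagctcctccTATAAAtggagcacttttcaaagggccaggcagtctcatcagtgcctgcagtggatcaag
Apoe: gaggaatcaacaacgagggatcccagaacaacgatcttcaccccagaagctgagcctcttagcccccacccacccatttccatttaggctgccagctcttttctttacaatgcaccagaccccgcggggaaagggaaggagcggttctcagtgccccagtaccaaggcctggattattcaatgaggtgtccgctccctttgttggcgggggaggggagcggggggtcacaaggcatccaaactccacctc

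The forkhead letters were found in 5 of the 8 promoters (Apoa1, Apoa2, Apob, Apoh and Fabp1) and in 7.29% of 32851 promoter windows of the same length. Apoa1 held them at 2 positions. TATAAA stood in 3 of the 8 (Apoa2, Apob and Fabp1) and in 12.4% of all windows, and AGGTCA in 2 of the 8 (Apoh and Fabp1) and in 14.02%. GTTAAT was found in Fabp1 alone of the 8 and in 6.43% of all windows, and CAAAGTCCA in none of the 8 and in 0.384%. The motifs did not overlap each other in the windows printed, and such matches describe letters only. For Apoa4 and Apom the start used lay 148 and 249 bases from that of the matched transcript, which limits these counts.

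The 4 libraries held 96260423 to 111324295 mapped reads, except WT replicate 1 with 70020061. Hnrnpl, the targeted gene, stood at 280 and 269 counts per 1000000 (CPM, on library sizes scaled by the TMM method) in KO and at 460 and 603 CPM in WT, and fell by 0.95 on the log2 scale (edgeR quasi-likelihood test, adjusted p = 0.0114). Xist was at 952 and 6.55 CPM in KO and at 975 and 929 CPM in WT, so KO replicate 2 had the Xist level of a male and the other 3 those of females. Markers of erythroid cells were lower in KO for 12 of 17 and higher for 0, with summed levels of 43266 and 33030 CPM in KO and 71545 and 63193 CPM in WT. Of all genes tested, 9.44% were called lower in KO. The median log2 fold change of the erythroid markers was -0.77. With 1 library left out it ran from -1.17 (without KO replicate 1) to -0.62 (without KO replicate 2). All 11 cardiac muscle markers were lower in KO, with summed levels of 4.95 and 7.86 CPM in KO and 63.4 and 339 CPM in WT, and 7 were without KO replicate 2. Which libraries were sequenced together is not given, so a batch difference between the genotypes could not be checked. The p-values given here reflect only how far these 4 libraries scattered, which may be technical.

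Hepatocytes were present by their markers in every library, and those markers held a larger share of the reads in KO. Reads on 28 hepatocyte markers that are not among the 10 genes made up 9.04% and 7.80% of all gene reads in KO and 5.51% and 4.11% in WT. Of the 28, 13 were higher in KO and 0 lower, with a median log2 fold change of 0.81, while 20.8% of the 15028 genes tested passed (11.4% higher and 9.44% lower) with a median of 0.02. Krt18, a keratin of simple epithelia, rose 1.77-fold, the urea cycle genes Ass1 2.23-fold and Otc 1.92-fold, and albumin (Alb) was at 31296 and 24904 CPM in KO and 21421 and 14945 CPM in WT without passing (edgeR adjusted p = 0.132). The number higher was 4 without WT replicate 2, 23 with library sizes alone, 25 with no filter on low counts, 20 by DESeq2 and 27 with a replicate block (a number shared by file names). In bulk RNA, more hepatocytes, more RNA per hepatocyte and less RNA from other cells, such as the erythroid cells, cannot be told apart.

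Of the 9 genes tested, Fabp1 rose in KO and no other member passed in either direction. The share of all genes called higher was 11.4% (20.8% in either direction), so the count of 1 in 9 is near the background. In CPM both KO libraries lay above both WT libraries for 4 of the 9 (Apoa1, Apob, Apoe and Fabp1) and below them for 0. Of all genes tested, 33.5% lay above and 31.7% below (65.2% for either). The groups overlapped in CPM for the other 5. Scaled reads on annotated splice junctions also put both KO libraries above both WT libraries for Apoa2, Apoc1, Apoh and Apom. None of these passed by that count (edgeR adjusted p of 0.149 to 0.205). The share of all genes that separated on it was not counted. The median log2 fold change of the 9 was 0.57, and it was 0.29 without KO replicate 1, 0.87 without WT replicate 1 and 0.19 without WT replicate 2. At an unadjusted edgeR p under 0.05 there were 3 of the 9, Apob, Apoe and Fabp1, against 37.4% of all genes tested. Together the 10 genes took 1.26% and 1.13% of gene reads in KO and 0.900% and 0.596% in WT, and Apob alone held 52.9% and 57.5% of those reads in KO and 53.1% and 57.0% in WT.

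**Figure D1:**
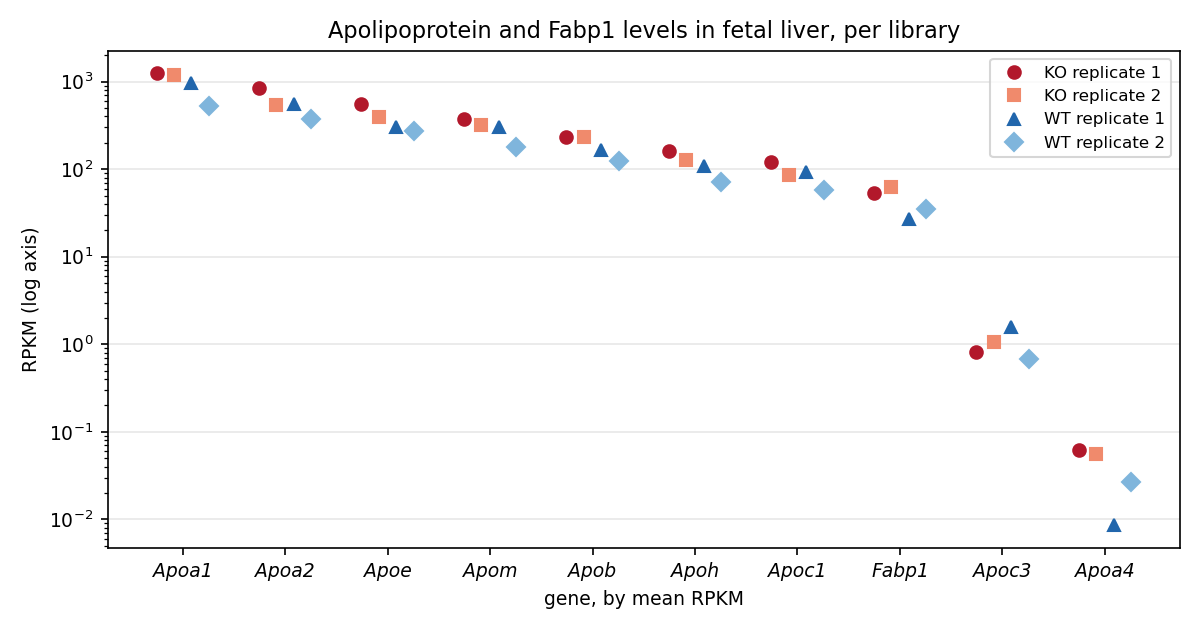
Level of each of the 10 genes in each library as the deposited RPKM (reads scaled to transcript length and to mapped reads, log axis), ordered by mean, with 1 point per library. Apoa1 stands highest in all 4 libraries, and Apoc3 and Apoa4 lie far below the other 8.

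Set side by side per length, as the deposited RPKM, the 10 genes kept the same order by mean in both genotypes. Apoa1 averaged 1222 ± 30.7 RPKM in KO and 751 ± 308 RPKM in WT (SD, n = 2 each, as for all RPKM means here). Apoa2 followed with 690 ± 215 in KO and 466 ± 133 in WT, and Apoe with 475 ± 115 in KO and 288 ± 26.1 in WT. Then came Apom at 346 ± 35.7 in KO and 243 ± 90.9 in WT, and Apob at 234 ± 0.132 in KO and 145 ± 28.7 in WT. The main genes of high-density lipoprotein, Apoa1 and Apoa2, led the order, and Apob, the gene with most reads, was the fifth per length. Apoh stood at 144 ± 24.9 RPKM in KO and 90.5 ± 27.6 RPKM in WT, Apoc1 at 103 ± 25.3 in KO and 75.3 ± 24.0 in WT, and Fabp1 at 58.4 ± 6.40 in KO and 30.7 ± 5.68 in WT. Apoc3 averaged 0.946 ± 0.176 RPKM in KO and 1.13 ± 0.633 RPKM in WT, and Apoa4 0.0588 ± 0.00385 RPKM in KO and 0.0178 ± 0.0130 RPKM in WT. Neighbours whose single libraries overlapped were Apoa2 and Apoe in KO, and in WT Apoa1 and Apoa2, Apoe and Apom, and Apoh and Apoc1.

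Fabp1 (chromosome 6, 71149882 to 71155017, plus strand, in the coordinates of the files, whose build is not given) binds long-chain fatty acids in the cytosol of hepatocytes. It had 54.0 and 58.1 CPM in the KO libraries and 28.5 and 34.3 CPM in the WT libraries. Both KO libraries lay above both WT libraries, and the pair within each genotype was close. Its means were 56.0 ± 2.93 CPM in KO and 31.4 ± 4.07 CPM in WT (SD, n = 2 each), a 1.78-fold rise (log2 0.83, SE 0.13, edgeR quasi-likelihood test, adjusted p = 0.00993). With any 1 library left out it stayed past the threshold, with adjusted p of 0.0146 to 0.0379. Reads across its 3 annotated splice junctions gave a second count. They numbered 189 and 249 per 1000000 known junction reads in KO and 106 and 117 in WT, a 1.84-fold rise (edgeR adjusted p = 0.00454).

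Of 11 other fatty acid carriers listed, 6 were tested and 0 passed in either direction by edgeR, DESeq2 or limma voom. By edgeR 1 of the 6 had an unadjusted p under 0.05, against 37.4% of all genes, and the median log2 fold change was 0.05. Calls appeared under other settings: 2 were lower without WT replicate 1, 2 lower with no filter on low counts, 1 lower when libraries were scaled to hepatocyte marker reads, 1 lower with the replicate block, and 1 higher by known junction reads. Fabp4, the carrier of fat and endothelial cells, had 8.50 and 9.13 CPM in KO and 10.3 and 17.1 CPM in WT (edgeR adjusted p = 0.0963). Scp2, a sterol carrier, had 32.4 and 36.8 CPM in KO and 31.0 and 28.04 CPM in WT, and Dbi, which binds acyl-CoA, 130 and 103 CPM in KO and 104 and 104 CPM in WT. Fabp6 and Pmp2 had 0 reads in every library.

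Apob (chromosome 12, 7984483 to 8023645, plus strand), the structural protein of the lipoproteins the liver secretes, had more reads than any other member. It stood at 6617 and 6105 CPM in KO and at 4987 and 3481 CPM in WT. Both KO libraries were above both WT libraries, and the lower WT library was replicate 2. The means of 6361 ± 362 CPM in KO and 4234 ± 1065 CPM in WT (SD, n = 2 each) gave a log2 fold change of 0.59 (SE 0.23), which did not pass (edgeR adjusted p = 0.104). By reads on known junctions the value was 0.62 (SE 0.19), which did (edgeR adjusted p = 0.0480), and by DESeq2 the adjusted p was 0.00658. Without WT replicate 2 the log2 value was 0.35.

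The 28 annotated junctions of Apob let the difference be followed along the transcript. Reads per 1000000 known junction reads summed to 1640 and 1653 in KO and 1158 and 871 in WT. The ratio of KO to WT means was above 1 at all 28 junctions and ran from 1.32 to 2.02. Both KO libraries lay above both WT libraries at 27 of them, the exception being the thinly covered junction 13, with 6 and 2 reads in KO and 1 and 4 in WT. These junctions share 1 transcript and are not independent.

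**Figure D2:**
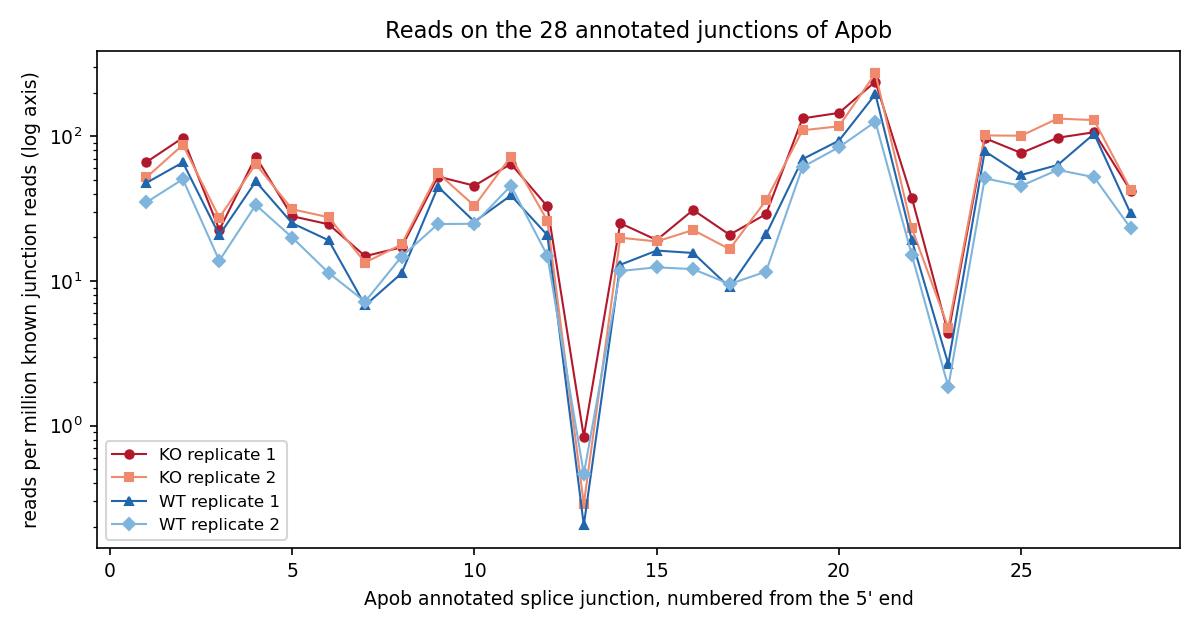
Reads per 1000000 known junction reads (log axis) on each of the 28 annotated splice junctions of Apob, numbered from the 5′ end, with 1 line per library. The KO lines lie above the WT lines at every junction but the 13th, which holds 6 and 2 reads in KO and 1 and 4 in WT.

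Apoa1 (chromosome 9, 46036713 to 46038549, plus strand), the main protein of high-density lipoprotein, had 2495 and 2220 CPM in KO and 2069 and 1053 CPM in WT. In CPM, WT replicate 2 lay far below the other 3 libraries. The means of 2357 ± 194 CPM in KO and 1561 ± 718 CPM in WT (SD, n = 2 each) gave a log2 fold change of 0.59 (SE 0.30, edgeR adjusted p = 0.188). It was 0.19 without WT replicate 2, and 1.16 without WT replicate 1, where it passed (edgeR adjusted p = 0.0255). Apoa2 (chromosome 1, 173155185 to 173156510, plus strand), the other abundant protein of these particles, had 894 and 527 CPM in KO and 633 and 389 CPM in WT. Its groups overlapped in CPM, since KO replicate 2 lay below WT replicate 1 (log2 fold change 0.48, SE 0.30, edgeR adjusted p = 0.283). With 1 library left out its log2 value ran from 0.04 (without KO replicate 1) to 0.87 (without WT replicate 1).

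Apoe (chromosome 7, 20281593 to 20284515, minus strand), a ligand of lipoprotein receptors made by hepatocytes and macrophages, had 1418 and 926 CPM in KO and 832 and 676 CPM in WT. Both KO libraries were above both WT libraries, with KO replicate 1 standing well above the other 3. Its means of 1172 ± 349 CPM in KO and 754 ± 110 CPM in WT (SD, n = 2 each) gave a log2 fold change of 0.64 (SE 0.23, edgeR adjusted p = 0.0841), so it did not pass. It passed by DESeq2 (adjusted p = 0.00944) and without KO replicate 2 (log2 0.91, edgeR adjusted p = 0.0379), and without KO replicate 1 the value was 0.29. Macrophage markers went both ways: of 13 tested, Mertk, Siglec1 and Cd68 (the last 2 named after their values were seen) were higher in KO and Clec4f and Emr1 lower, with a median log2 fold change of -0.36 and summed levels of 670 and 518 CPM in KO and 806 and 599 CPM in WT. The number higher was 1 without KO replicate 2 and 0 without WT replicate 2, the number lower was 4 without KO replicate 1 or WT replicate 2, and their part in the level of Apoe was not tested.

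Apoc1 (chromosome 7, 20274830 to 20278007, minus strand), a small protein that inhibits lipid uptake from particles, had 106 and 69.0 CPM in KO and 86.0 and 50.2 CPM in WT. The groups overlapped in CPM (log2 fold change 0.37, SE 0.27, edgeR adjusted p = 0.367). Apoh (chromosome 11, 108256611 to 108275710, plus strand), the phospholipid-binding plasma protein, had 390 and 281 CPM in KO and 283 and 169 CPM in WT. Its groups overlapped in CPM by a narrow margin, KO replicate 2 being just below WT replicate 1. The log2 fold change was 0.57 (SE 0.25, edgeR adjusted p = 0.145), and it passed by DESeq2 (adjusted p = 0.0496). Without WT replicate 1 the log2 value was 0.99. Its log2 value was 0.31 without KO replicate 1 and 0.25 without WT replicate 2. Apom (chromosome 17, 35265942 to 35268697, minus strand), the carrier of sphingosine phosphate, had 540 and 430 CPM in KO and 476 and 256 CPM in WT. Its groups overlapped in CPM too (log2 fold change 0.41, SE 0.27, edgeR adjusted p = 0.318), and without WT replicate 1 the log2 value was 0.92. In RPKM, Apoh and Apom had both KO libraries above both WT libraries, while Apoa2 and Apoc1 overlapped. With 1 library left out the log2 value of Apom ran from 0.03 (without WT replicate 2) to 0.92, and that of Apoc1 from 0.02 (without KO replicate 1) to 0.80 (without WT replicate 1).

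Apoc3 and Apoa4 were barely detected. Apoc3 (chromosome 9, 46041134 to 46043380, minus strand), an inhibitor of lipolysis, had 42 and 54 reads in KO and 58 and 40 reads in WT, or 0.877 and 1.05 CPM in KO and 1.80 and 0.720 CPM in WT. The groups overlapped (log2 fold change -0.35, SE 0.49, edgeR adjusted p = 0.645), and the sign turned without WT replicate 1 (log2 0.42, edgeR adjusted p = 0.648). Across its 3 annotated junctions there were 1 and 0 reads in KO and 5 and 0 in WT. Apoa4 (chromosome 9, 46048927 to 46051541, plus strand), best known from the intestine, had 10 and 9 reads in KO and 1 and 5 in WT and 0 reads on its 2 annotated junctions, which allows up to 0.420 and 0.432 per 1000000 known junction reads in KO and 0.615 and 0.348 in WT by counting error alone. It was not tested. Gut epithelium markers were sparse as well: 7 of 15 were too low to test, Cdx1 and Cdx2 were at or under 0.0780 CPM in each library, and the 15 summed to 35.7 and 33.2 CPM in KO and 31.5 and 29.97 CPM in WT. Of the 8 tested, Muc13 rose 1.68-fold and Muc6 fell to 0.263 of its WT level, and Vil1, the third by p, had 1.11 and 2.54 CPM in KO and 0.526 and 0.846 CPM in WT. Muc13 did not pass without WT replicate 1 or WT replicate 2.

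Apoc3 lies next to the abundant Apoa1. Apoa1, Apoc3, Apoa4 and Apoa5 lie within 43290 bases of chromosome 9, and 2584 bases separate Apoa1 from Apoc3. Apoa5, a low-abundance activator of lipolysis and the fourth gene there, had 0.619 and 0.716 RPKM in KO and 0.166 and 0.213 RPKM in WT, and rose 3.28-fold on the CPM scale (edgeR adjusted p = 0.0119). In the cluster on chromosome 7, Apoe, Apoc1, Apoc4 and Apoc2 span 27588 bases. Apoc2, the activator of lipoprotein lipase, had 263 and 180 CPM in KO and 150 and 116 CPM in WT and rose 1.67-fold (edgeR adjusted p = 0.0398). Apoc4 had 34.3 and 31.0 CPM in KO and 30.8 and 17.3 CPM in WT and did not pass (edgeR adjusted p = 0.221). No other gene of the files overlapped any of the 10 genes, and no other gene lay inside either cluster.

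**Figure D3:**
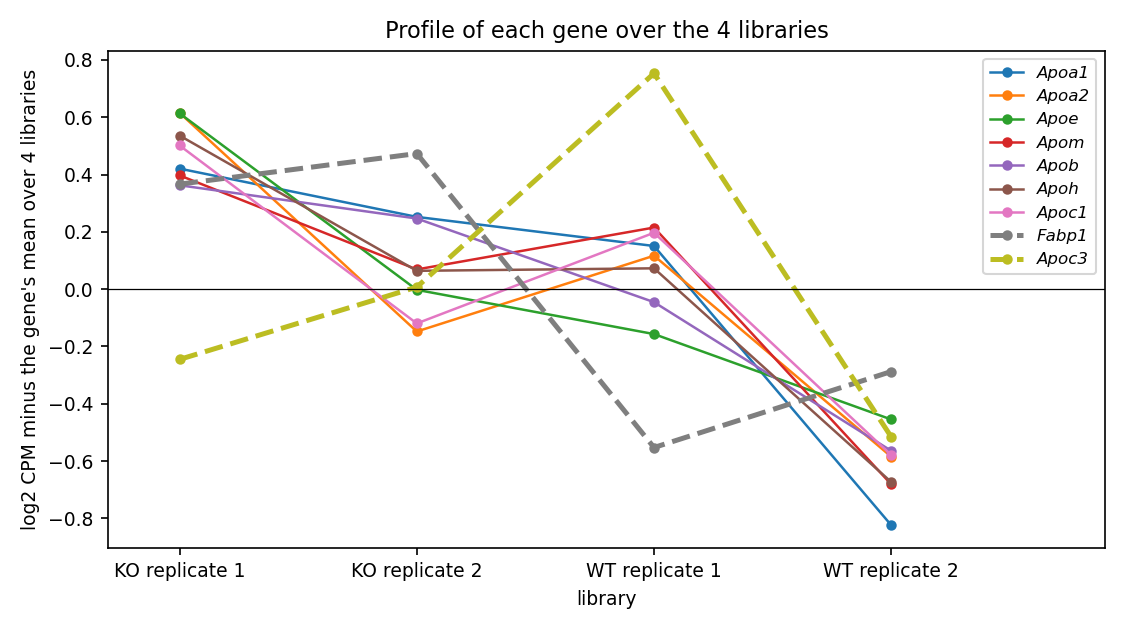
Log2 CPM of each gene minus its own mean, in each of the 4 libraries, for the 9 genes tested, with Fabp1 and Apoc3 dashed. Apoa1, Apoa2, Apob, Apoc1, Apoe, Apoh and Apom are highest in KO replicate 1 and lowest in WT replicate 2, while Fabp1 is highest in KO replicate 2 and lowest in WT replicate 1.

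The 7 abundant apolipoprotein genes had much the same profile over the libraries, being highest in KO replicate 1 and lowest in WT replicate 2. WT replicate 1 exceeded WT replicate 2 by 1.23 times (Apoe) to 1.97 times (Apoa1) in CPM, and KO replicate 1 exceeded KO replicate 2 by 1.08 times (Apob) to 1.70 times (Apoa2). Fabp1 differed in order, with WT replicate 1 at 0.832 of WT replicate 2 and KO replicate 1 at 0.929 of KO replicate 2. Among 5820 other genes averaging a log2 CPM of 5 or more, the 5 closest to the mean profile of the 9 genes were Habp2, Ccl9, Proc, Spp2 and Serpinf1. Their root mean square distances in log2 CPM over the 4 libraries were 0.03, 0.04, 0.05, 0.05 and 0.06. Habp2 and Proc encode plasma proteases made by the liver, Spp2 and Serpinf1 encode secreted proteins and Ccl9 is a chemokine.

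Measured against the hepatocyte markers in place of all reads, the 9 genes showed no call in either direction. With each library scaled to its reads on the 28 markers, the median log2 fold change of the 9 was -0.13 and that of all genes tested -0.72, and Apoa1, Apoa2, Apob, Apoc1, Apoe, Apoh and Apom turned to negative values between -0.34 and -0.07. Fabp1 had 599 and 793 reads per 1000000 hepatocyte marker reads in KO and 495 and 815 in WT, so its groups overlapped (log2 fold change 0.09, SE 0.37, edgeR adjusted p = 0.871). Apob had 73462 and 83307 in KO and 86668 and 82759 in WT (log2 -0.11, SE 0.25, edgeR adjusted p = 0.747). Apoc1, Apoc3 and Apom lay lower in both KO libraries than in both WT libraries on this scale. The share of all genes that did so was not counted. Of all genes tested, 4659 were called lower and 74 higher on this scale. Apoc3 had 9.74 and 14.4 in KO and 31.2 and 17.1 in WT (log2 -0.996, edgeR adjusted p = 0.104), Apoc1 1179 and 942 in KO and 1495 and 1194 in WT, and Apom 5993 and 5867 in KO and 8270 and 6078 in WT. Albumin and alpha-fetoprotein hold most of the marker reads used for this scale. Relative to all reads Fabp1 rose, and relative to hepatocyte marker reads a difference was not detectable in these 4 libraries.

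**Figure D4:**
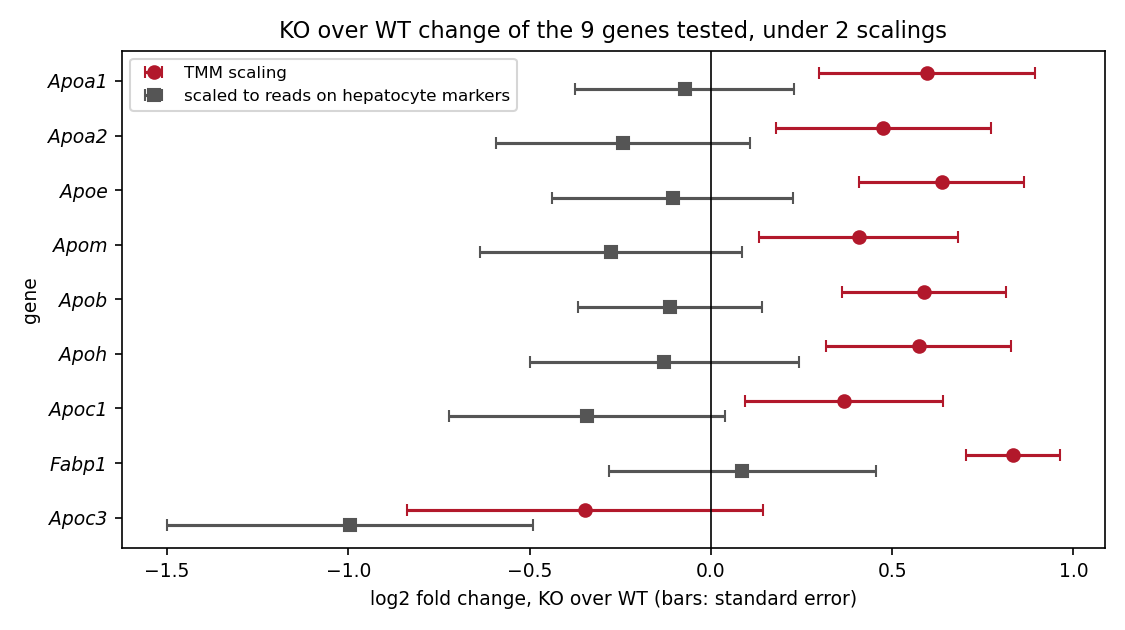
Log2 fold change of KO over WT with its standard error for the 9 genes tested, by edgeR with TMM scaling (circles) and with library sizes set to the reads on 28 hepatocyte markers (squares). With TMM scaling 8 of the 9 values are above 0 and Fabp1 passes the test, while on the hepatocyte scale 8 of the 9 are below 0 and none passes.

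Splicing of the 10 genes was compared through junction usage, which sets each junction's reads against those of the rest of its gene. No junction of these genes passed in edgeR's test of usage, where 0.00379% of 105454 junctions did (0.000948% higher in KO and 0.00284% lower), and 1 had an unadjusted p under 0.05, as did 2.46% of all junctions tested. That one was the last annotated junction of Apom (35266080 to 35267025), with 304 and 216 reads in KO and 75 and 107 in WT (log2 usage 0.83, edgeR adjusted p = 1.00). The test called 4 junctions among all genes. The most-read junction of each gene had a log2 usage value of 0.33 for the third of Apoa1, -0.05 for the third of Apoa2, -0.04 for the 21st of Apob, 0.10 for the third of Apoe, 0.06 for the fourth of Apoh, -0.06 for the third of Apom, 0.00 for the second of Apoc1 and -0.02 for the third of Fabp1.

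Unannotated junctions carried few reads in these genes. A putative junction of Apoa2 that joins the first exon to the third (173155252 to 173155797) had 33 and 20 reads in KO and 11 and 4 in WT. The annotated junctions it replaces had 439 and 397 reads (first) and 1683 and 1063 reads (second) in KO, and 253 and 316 reads (first) and 602 and 899 reads (second) in WT. One of Apob (7990787 to 8010062), from the donor of junction 6 to the acceptor of junction 23, had 23 and 26 reads in KO and 10 and 6 in WT. Neither passed (edgeR adjusted p = 1.00 for both), and both were chosen after their values were seen.

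Other apolipoproteins and proteins carried on lipoproteins were described by a list of 14. Of these, 11 were tested, 6 were higher in KO and 0 lower, with a median log2 fold change of 0.74. For this list and those below, the shares of all genes tested were 11.4% higher and 9.44% lower. Lcat, the enzyme that esterifies cholesterol on high-density lipoprotein, had 110 and 86.5 CPM in KO and 34.7 and 27.9 CPM in WT and rose 3.15-fold (edgeR adjusted p = 0.00446). Pltp, which transfers phospholipids between particles, rose 1.71-fold, and Clu, Apoc2 and Saa4 passed as well (named after their values were seen), as did Apoa5. The number higher was 3 without KO replicate 1, KO replicate 2 or WT replicate 2. On the hepatocyte scale, where 31.5% of all genes tested were called in either direction, the median was 0.06 and 1 passed.

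Genes that build and clear lipoproteins gave counts in the same direction. Of 13 tested genes of assembly and secretion, 4 were higher and 0 lower (median 0.40). Mttp, which loads lipid onto Apob, had 232 and 231 CPM in KO and 162 and 139 CPM in WT and rose 1.54-fold (edgeR adjusted p = 0.0165). Cideb, which acts in particle maturation, rose 1.83-fold, and A1cf, a cofactor of Apob mRNA editing named after its values were seen, 1.76-fold. Apobec1, the editing enzyme itself, had 7.79 and 6.61 CPM in KO and 10.1 and 7.07 CPM in WT and did not pass (edgeR adjusted p = 0.454; it was chosen after its values were seen). The number higher was 2 without KO replicate 2 and 1 without WT replicate 2, and on the hepatocyte scale the median was -0.31 with 0 higher and 2 lower.

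Of 18 genes for receptors, lipases and clearance, 9 were higher and 0 lower, with a median log2 fold change of 0.72. Lrp1, a receptor for Apoe-bearing remnants, had 204 and 184 CPM in KO and 112 and 105 CPM in WT and rose 1.79-fold (edgeR adjusted p = 0.0076). Sorl1, a sorting receptor, rose 2.04-fold. Abca1, which loads lipid onto Apoa1, had 735 and 763 CPM in KO and 415 and 415 CPM in WT, and Scarb1, the receptor of high-density lipoprotein, 226 and 202 CPM in KO and 222 and 208 CPM in WT (edgeR adjusted p of 0.0101 and 0.972; both were chosen after their values were seen). On the hepatocyte scale the median was 0.01 and none passed.

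Cholesterol synthesis genes were higher in KO for 14 of the 17 tested and lower for 0, with a median of 0.61. Dhcr7, which makes cholesterol from its last precursor, had 257 and 233 CPM in KO and 101 and 113 CPM in WT and rose 2.29-fold (edgeR adjusted p = 0.00446). Mvd rose 2.20-fold and Sc5d 1.67-fold. The number higher was 6 without KO replicate 2 or WT replicate 1 and 5 without WT replicate 2, and on the hepatocyte scale the median was -0.11 with 0 called. Of 10 genes of fatty acid uptake and activation, 5 were higher and 0 lower (median 0.55), among them Slc27a4 (1.82-fold) and Slc27a2 (1.84-fold), which import or activate fatty acids, and Got2, a mitochondrial aminotransferase (1.80-fold). That count was 3 without KO replicate 1, KO replicate 2 or WT replicate 2, and the median on the hepatocyte scale was -0.20. Of 10 tested targets of PPAR alpha, the receptor that turns on fatty acid oxidation, 4 were higher and 0 lower (median 0.39, and -0.35 on the hepatocyte scale). These included Cpt2, an enzyme of mitochondrial fatty acid import (1.81-fold), and 1 was higher without WT replicate 1 and 0 without KO replicate 2.

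Among 21 regulators of transcription known to act on apolipoprotein genes, 12 were higher and 0 lower, with a median of 0.72. Their median on the hepatocyte scale was 0.01, where none was higher and 1 lower. Foxa2, a forkhead factor of endoderm, had 8.98 and 9.83 CPM in KO and 3.81 and 3.15 CPM in WT and rose 2.72-fold (edgeR adjusted p = 0.00755). Ppara rose 2.03-fold and Nr5a2, a nuclear receptor of liver, 1.96-fold. Hnf4a, a main activator of Apob and Apoa genes, had 157 and 222 CPM in KO and 103 and 98.0 CPM in WT (1.88-fold, edgeR adjusted p = 0.0140; chosen after its values were seen). The number higher was 7 without WT replicate 2. Markers of the yolk sac and visceral endoderm, other sites of apolipoprotein synthesis in the embryo, summed to 104 and 124 CPM in KO and 77.9 and 80.2 CPM in WT. Of 6 tested, Cited1 and Dab2 were higher and 0 lower, and 1 was higher without WT replicate 1 and 0 without KO replicate 2 or WT replicate 2. Sox17 had 5.51 and 5.58 CPM in KO and 4.40 and 4.73 CPM in WT, and the part of these cells in the apolipoprotein levels was not tested.

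**Figure D5:**
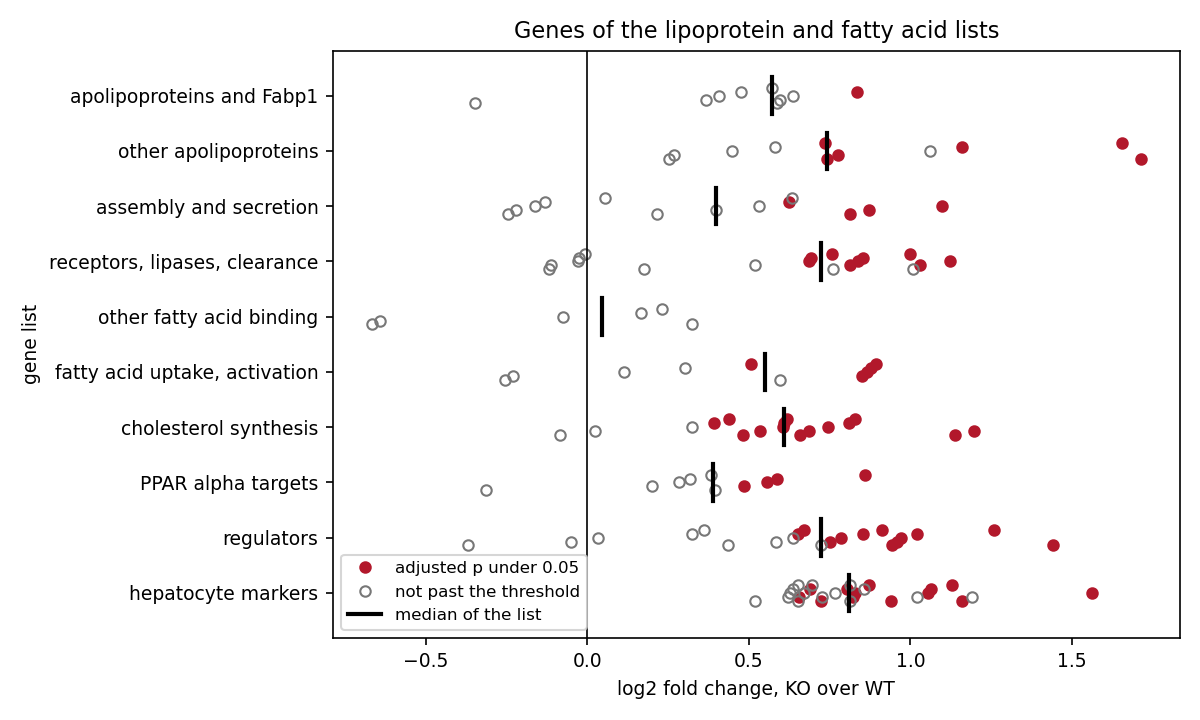
Log2 fold change of KO over WT (TMM scaling) for each tested gene of 10 lists, with filled points for genes past an adjusted p of 0.05, open points for the others and a bar at the median of each list. The bar stands at 0.57 for the apolipoproteins and Fabp1, at 0.61 for cholesterol synthesis and at 0.81 for hepatocyte markers, and 1 point is filled in the first list, against 14 for cholesterol synthesis. On the hepatocyte scale, which is not plotted, the first of these medians is -0.13 and the second -0.11.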

How the data were processed

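For each library the authors deposited raw read counts per RefSeq transcript. Only primary alignments whose mapping quality reached 10 entered these counts, per the file headers. The same tables hold RPKM values and reads per nucleotide, a coverage signal, both made by the authors per the file headers, and both matched values recomputed from the counts in 100% of rows. RPKM was used to set genes side by side and entered no test. A second deposited table gives raw read counts per splice junction (186874 known of 1921627). No aligner or genome build is given in the sources used here. Strand-specific counting is not stated either.

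Each of the 22011 genes was represented by the one of its transcripts (28283 in all) with most reads. Reads on these genes numbered 33738843 to 56895360 per library. Gene counts went into edgeR 4.0.16 (R 4.3.3) and its quasi-likelihood test, with TMM scaling, the default filter on low counts and Benjamini-Hochberg adjustment over 15028 genes, at a threshold of 0.05. CPM uses TMM-scaled library sizes. The standard error is the log2 fold change over the square root of F. For junction usage, diffSpliceDGE (edgeR) was run on junctions of 10 or more reads. The smallest p of an exact permutation test (two-sided) in this design is 0.333. Both tests were checked on simulated data. The junction simulation used a fixed scatter and not that of these libraries, so it does not show which changes the usage test could miss here. Alternatives included DESeq2 1.42.0 and limma voom (limma 3.58.1). Members, gene lists and tests were chosen with earlier results of these data known. Named genes were all members and, of each list, the 3 with the smallest p, others being marked as chosen after their values were seen. Some genes that this rule names are not reported here. Hmgcs1, Mia3, Adgre1 and Rhox5 matched no gene by name and were not analysed here.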

Additional observations from a re-analysis of the deposited data

How the results depend on the processing

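The call of Fabp1 held under 13 of 14 alternatives, and was lost when libraries were scaled to hepatocyte marker reads (log2 0.09). The number of the 9 genes called higher was 1 by default. It was 4 by DESeq2 (with Apob, Apoe and Apoh), 5 with no filter on low counts (also Apoa1), 3 with library sizes alone (with Apob and Apoe), 2 by known junction reads (with Apob), 0 on the hepatocyte scale, and 1 to 4 with 1 library left out. Of all genes 1711 were higher and 1419 lower. By DESeq2 these counts were 1926 and 1723 (25.2% of genes tested), and with no filter on low counts 2494 and 1848 (21.9%). They were 2380 and 952 with library sizes alone (22.2%), 696 and 495 by known junction reads and 74 and 4659 on the hepatocyte scale. With 1 library left out they were 641 to 1307 higher and 338 to 1185 lower. On the hepatocyte scale the log2 fold change was -0.073 for Apoa1, -0.24 for Apoa2, -0.11 for Apob, -0.34 for Apoc1, -0.11 for Apoe, -0.13 for Apoh and -0.27 for Apom, all opposite in sign to the values with TMM scaling, with a median of -0.13. The median was 0.19 to 0.87 with 1 library left out. Apoc3 ran from -0.89 to 0.42 with 1 library left out, its sign turning without WT replicate 1. The cause of these shifts was not tested.

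With 1 library left out, an alternative chosen after seeing the data for the lists, the number higher was 3 to 8 for other apolipoproteins, 1 to 4 for assembly, 7 to 9 for receptors, 3 to 4 for fatty acid uptake, 5 to 12 for cholesterol synthesis, 0 to 4 for PPAR alpha targets, 7 to 13 for regulators, 4 to 19 for hepatocyte markers, 0 to 3 for macrophages, 0 to 1 for gut and 0 to 2 for yolk sac. The number lower was 2 to 4 for macrophages, 7 to 11 for cardiac and 4 to 15 for erythroid markers. By known junction reads, which tested fewer genes, 10.6% of all genes tested were called in either direction. On that measure 3 of 9 other apolipoproteins, 2 of 10 PPAR alpha targets and 6 of 14 regulators were higher. Among markers, 1 of 13 macrophage, 0 of 6 gut and 0 of 4 yolk sac were higher, and 7 of 7 cardiac lower. Macrophage markers called lower numbered 4 with no filter, 7 on the hepatocyte scale and 7 with the replicate block, and cardiac markers lower 6 by limma voom.

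The names of the deposited files carry a number that 1 KO and 1 WT library share. What it marks is not given, and with 2 pairs it could not be shown to pair the libraries (deviations correlated at 0.14 over 15028 genes). With this number as a replicate block, 7 of the 9 genes were called higher, all but Apom and Apoc3. Of all genes tested, 2342 were then higher and 1999 lower, or 28.9% called, against 20.8% without the block. Apoc3 and Apoa4 had 58 reads or fewer in each library, and why they were so low was not tested.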
